A study of Mus musculus with 9 samples.

Results

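The genes described here are 10 members of the p53 response: Trp53, which encodes p53 itself, and the target genes Cdkn1a, Mdm2, Ccng1, Trp53inp1, Phlda3, Zmat3, Ei24, Aen and Plk2. They were found by taking every probe set that the array's annotation assigns to one of these symbols. A probe set is a group of short oligonucleotides that together read 1 transcript. Of the 10 genes, 9 had such probe sets, 19 in all, out of 18193 genes and 45037 probe sets tested. Trp53 was not analysed here. All 9 measured genes exceeded a log2 level of 4, taken as the floor of detection, on at least 3 arrays, as did 9390 of the 18193 genes.

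RNA came from adult mouse olfactory bulb stem cells (aOBSC), grown as floating neurospheres for 7 days. FGF-2 and EGF were given at 20 ng/ml each. These growth factors keep neural stem cells dividing and alive in culture. They were supplied daily in Ctr, at 2-day intervals in C2 and at 4-day intervals in C4, and each condition was read on 3 Affymetrix Mouse Genome arrays. The study states that C4 cultures had gone 3 days without added factors when collected, and C2 cultures a shorter time. The interval and the time since the last addition therefore cannot be told apart. All cultures had received both factors daily up to passage 3, and were then held in their condition for 2 passages before RNA was taken. The methods name CD1 or C57Bl/6 mice, and the legend of the expression data gives ages of 7 and 15 months, without saying which array came from which animals. The design text of the series calls the 3 samples of a condition biological replicates, but no source used here ties them to separate cultures, so the p-values measure the spread between these samples only.

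All levels are log2 values normalised by the authors with GCRMA, which removes a background predicted from the bases of each probe and brings the arrays close to each other in scale. A difference of 1 is a doubling or a halving, and 2.27 is the lowest value on the arrays. The arrays were closely matched, with upper quartiles between 6.46 and 6.60 and correlations of at least 0.99769 within a condition. All 9 measured markers of neural stem cells exceeded the floor, with mean log2 levels in Ctr from 5.64 (Msi1) and 5.71 (Nes) to 13.07 (Sox2) and 14.92 (Vim), and in C4 Egfr, Pax6 and Fabp7 rose (by 0.83, 0.57 and 0.34) while Vim fell by 0.40. None of the 7 markers of microglia, 5 of endothelial cells or 5 measured markers of oligodendrocytes exceeded the floor. Of 6 markers of pericytes and fibroblasts only Acta2 did, barely, at 4.09 in Ctr. Of 6 neuronal markers only Map2 exceeded the floor, at 12.16 in Ctr, while Dcx, Tubb3, Rbfox3, Syt1 and Snap25 did not. The mean log2 level of the 6 astrocyte markers was 7.53 to 7.58 on Ctr arrays, 7.47 to 7.63 on C2 arrays and 8.09 to 8.25 on C4 arrays, and 3 of the 6 (Aldh1l1, S100b and Aqp4) rose in C4. Gfap did not exceed the floor (mean 3.68 in Ctr and 3.79 in C4), and Aldh1l1 fell by 0.76 in C2. The part of these marker shifts in the results on C4 was not tested. In bulk RNA, a change in the number of cells of a type and a change in RNA per cell cannot be told apart.

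p53 is a transcription factor that is held at a low level by Mdm2, a ubiquitin ligase that marks it for destruction. DNA damage and other stresses release p53 from this control, and it then binds pairs of a short consensus motif near its target genes. Among the targets, some stop the cell cycle, some promote cell death, some repair DNA or alter metabolism, and others, Mdm2 first among them, shut the response down again. In neural stem cells, p53 is known for restraining proliferation and self-renewal.

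With growth factors every 4 days, Plk2, Cdkn1a and Ccng1 fell and Ei24 rose relative to Ctr. The falls were 0.77 for Plk2, a 1.70-fold lower level, 0.45 for Cdkn1a and 0.31 for Ccng1 on the log2 scale, and the rise of Ei24 was 0.27. These 4 of 9 genes passed an adjusted p of 0.05 (limma, Benjamini-Hochberg over all probe sets), 1 higher and 3 lower. In the same comparison 6.29% of all probe sets passed, and 17.5% of genes over the floor, 10.7% higher and 6.78% lower. The median difference of the 9 genes was -0.30, beside 0.05 for all genes over the floor. The genes were chosen with earlier results of these data known, so setting their counts and medians beside all genes is not a blind comparison. With growth factors every 2 days, only Plk2 passed, lower by 0.37, beside 1.7% of all probe sets and 4.79% of genes over the floor (3.21% higher and 1.59% lower), and the median of the 9 genes was -0.02 beside 0.02. Between C4 and C2, Cdkn1a and Plk2 passed, both lower in C4, beside 5.25% of all probe sets and 14.8% of genes over the floor (8.17% higher and 6.68% lower). None of the 9 genes differed by the 1 log2 unit that the study used as its threshold. The comparisons share arrays (C2 and C4 are both set against the same Ctr arrays), so they are not independent of each other. When only the arrays of C4 and Ctr entered the fit, 2 genes, Cdkn1a and Plk2, passed instead of 4. Leaving out 1 array at a time gave counts of 3 to 4 for C4 against Ctr, 0 to 2 for C2 against Ctr and 2 to 4 for C4 against C2, the arrays concerned being given with each gene.

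**Figure D1:**
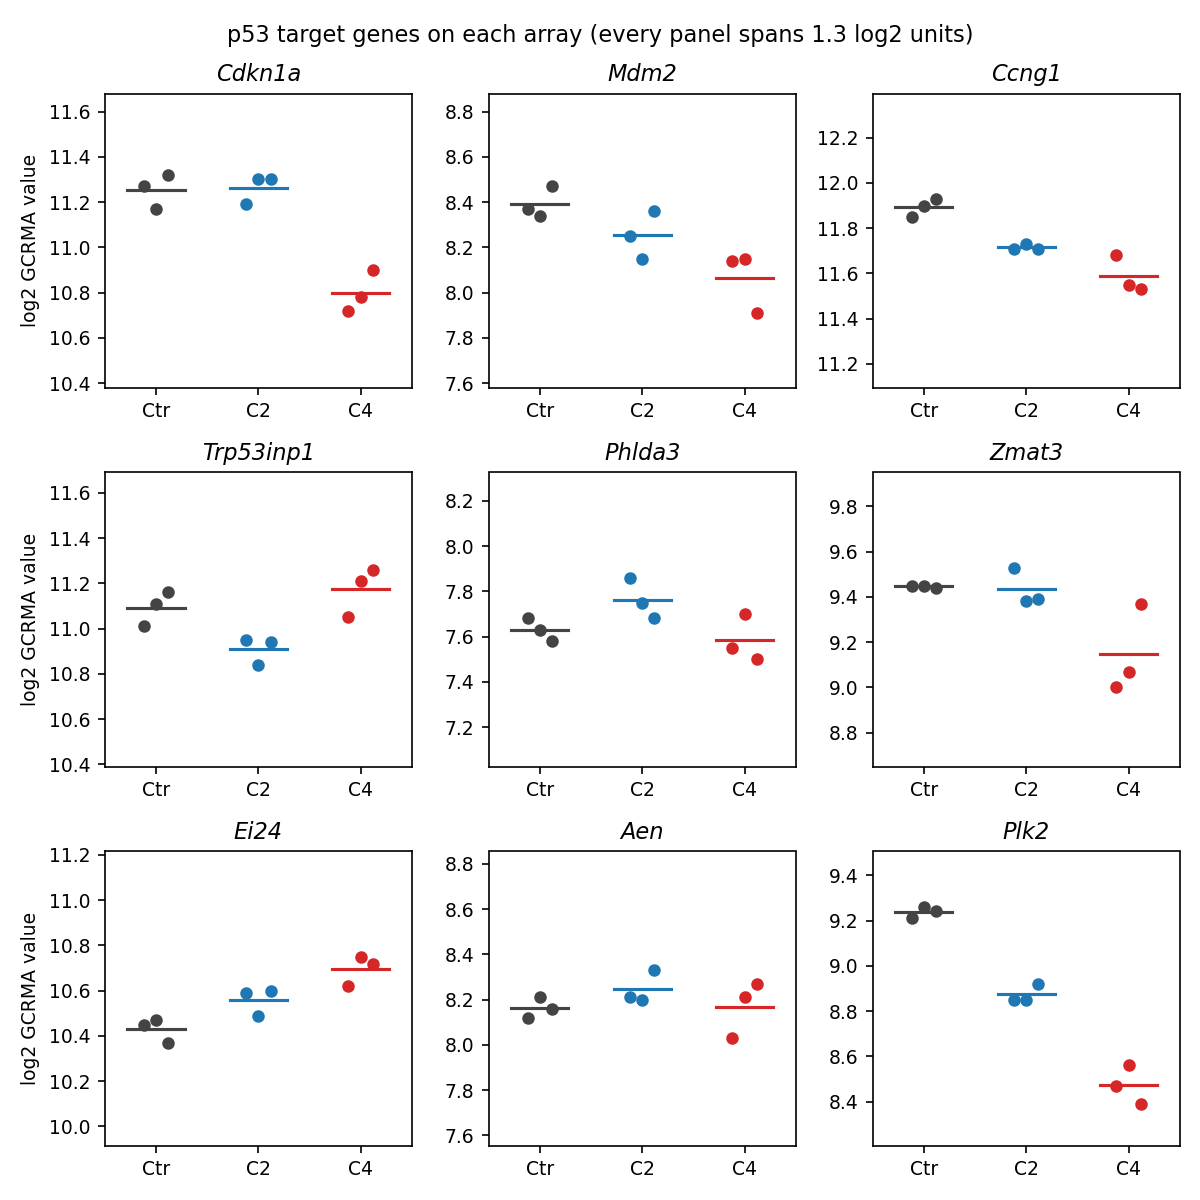
The log2 GCRMA level (y axis) of the 9 measured genes on each of the 9 arrays, by the probe set of highest mean; points are arrays, ordered by replicate number, lines are condition means, and every panel spans the same range of log2 units. The C4 arrays of Plk2 (8.39 to 8.56), Cdkn1a (10.72 to 10.90) and Ccng1 (11.53 to 11.68) lie below all Ctr arrays of the same gene, and those of Ei24 (10.62 to 10.75) lie above.

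The promoters of the 5 genes on which these results turn are shown first, since p53 targets are defined by binding of p53 near the gene. Each line gives the 250 bases before an annotated transcription start, 5′ to 3′ on the strand of the gene, from RefSeq on the mouse build GRCm38.p6. Capitals mark an exact match to the p53 consensus decamer, the unit of which a full p53 site holds a pair, or, in Plk2, the cAMP response element TGACGTCA, to which CREB family factors bind. No mismatch was allowed, so a decamer that departs from the consensus at any base stays in lower case, also beside a marked one. Cdkn1a (chr17:29090729-29090978, plus strand) has 2 such decamers, 12 bases apart, before its upstream start. Mdm2 (chr10:117710759-117711008), Ccng1 (chr11:40755287-40755536) and Ei24 (chr9:36797335-36797584), all on the minus strand, have 1 each, and Plk2 (chr13:110394794-110395043, plus strand) has none. The search does not tell which of these decamers belong to a full site.
Cdkn1a: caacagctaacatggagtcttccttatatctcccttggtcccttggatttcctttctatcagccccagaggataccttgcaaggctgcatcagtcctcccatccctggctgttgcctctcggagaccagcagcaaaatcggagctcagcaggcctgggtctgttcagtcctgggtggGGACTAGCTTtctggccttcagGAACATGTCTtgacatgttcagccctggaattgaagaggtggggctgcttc
Mdm2: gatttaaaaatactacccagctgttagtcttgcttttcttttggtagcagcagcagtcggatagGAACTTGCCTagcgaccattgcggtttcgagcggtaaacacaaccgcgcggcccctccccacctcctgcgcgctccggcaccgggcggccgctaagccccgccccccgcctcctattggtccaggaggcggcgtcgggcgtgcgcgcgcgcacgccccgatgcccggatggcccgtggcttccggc
Ccng1: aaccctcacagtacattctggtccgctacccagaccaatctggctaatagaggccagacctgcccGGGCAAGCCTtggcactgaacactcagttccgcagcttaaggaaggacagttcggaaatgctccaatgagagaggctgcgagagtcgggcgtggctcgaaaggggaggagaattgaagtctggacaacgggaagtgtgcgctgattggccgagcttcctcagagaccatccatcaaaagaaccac
Ei24: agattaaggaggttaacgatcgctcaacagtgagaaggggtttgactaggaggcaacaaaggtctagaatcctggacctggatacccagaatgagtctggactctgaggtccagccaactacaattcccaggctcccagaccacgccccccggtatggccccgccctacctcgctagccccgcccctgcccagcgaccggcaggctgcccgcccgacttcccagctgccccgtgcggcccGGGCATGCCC
Plk2: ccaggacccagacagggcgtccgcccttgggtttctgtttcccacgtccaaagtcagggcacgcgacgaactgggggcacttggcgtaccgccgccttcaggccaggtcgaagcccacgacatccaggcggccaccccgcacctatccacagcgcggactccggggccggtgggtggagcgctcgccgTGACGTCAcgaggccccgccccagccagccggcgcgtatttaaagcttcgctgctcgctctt

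Of the 10 genes, 8 matched the RefSeq promoter table, with 10 annotated starts. The decamer was found, on either strand, in the window before 6 of these 10 starts, against 7.13% of 32851 starts in the table. These starts were those of Trp53, Cdkn1a (the upstream of 2), Mdm2, Ccng1, Ei24 and Aen (the second of 2). The window of Phlda3 held none. TGACGTCA was found before Plk2 alone among them and before 1.55% of all starts. The genes with a decamer in this window include the 2 lower genes Cdkn1a and Ccng1, the higher gene Ei24, and Mdm2 and Aen, which did not pass the test. Since the list holds known targets of p53, a share above that of all starts can follow from how the list was drawn up. A match of letters does not show that p53 was bound in these cells, and the windows do not cover introns, where several p53 targets hold their known sites.

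The feedback arm of the pathway includes Mdm2 and Ccng1. Mdm2 (Entrez gene 17246, chr10:117688875-117710758) had log2 levels of 8.37, 8.34 and 8.47 on the Ctr arrays, 8.25, 8.15 and 8.36 on the C2 arrays, and 8.14, 8.15 and 7.91 on the C4 arrays. The C4 arrays lay below all Ctr and all C2 arrays, while C2 and Ctr overlapped. Against C2, the closest pair of arrays differed by less than the rounding shows. The difference between C4 and Ctr was -0.33 (SE 0.084, 95% confidence interval -0.53 to -0.13), with an adjusted p of 0.0849. Another probe set of Mdm2 read 7.33, 7.30 and 7.26 in Ctr, 7.15, 7.14 and 7.17 in C2, and 6.90, 7.03 and 7.14 in C4. On that probe set the fall in C4 passed the test, at -0.27 with an adjusted p of 0.0469, and the difference in C2 was -0.14 (adjusted p = 0.488). The probe set of highest mean passed too when probe sets below the floor were left out (adjusted p = 0.0191), over a range of 0.0191 to 0.224 in the 15 of 17 alternative settings that read it, so the call for Mdm2 depends on the setting.

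Ccng1 (Entrez gene 12450, chr11:40748552-40755309) encodes cyclin G1, an atypical cyclin that brings a phosphatase to Mdm2. Its log2 levels were 11.85, 11.90 and 11.93 in Ctr, 11.71, 11.73 and 11.71 in C2, and 11.68, 11.55 and 11.53 in C4. The 3 conditions did not overlap in any pair. The fall in C4 was 0.31 on the log2 scale (SE 0.04, adjusted p = 0.00706), and the difference in C2 was -0.18, which missed the threshold (adjusted p = 0.114) but passed without C4 replicate 1 in the shared fit (adjusted p = 0.035, over a range of 0.0327 to 0.383 in the 15 settings that read this probe set). The difference between C4 and C2 was -0.13 (adjusted p = 0.164), and -0.18 without C4 replicate 1, where it passed (adjusted p = 0.0204, over a range of 0.0204 to 0.416 in the same settings). A second probe set of Ccng1, with values of 10.74, 10.78 and 10.77 in Ctr, 10.62, 10.60 and 10.60 in C2, and 10.48, 10.57 and 10.56 in C4, passed in both comparisons (-0.23 in C4 with an adjusted p of 0.0032, -0.16 in C2 with 0.0346). The remaining probe set was more variable, from 10.49 to 10.73 in C4 against 10.74 to 10.82 in Ctr, and did not pass in C4 (-0.17, adjusted p = 0.388). All 3 probe sets thus had C4 arrays below every Ctr array.

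The arrest arm is represented by Cdkn1a, which encodes p21, the inhibitor of cyclin-dependent kinases through which p53 halts cells in G1. Cdkn1a (Entrez gene 12575, chr17:29090979-29100722) had log2 levels of 11.27, 11.17 and 11.32 in Ctr and 11.19, 11.30 and 11.30 in C2, against 10.72, 10.78 and 10.90 in C4. Ctr and C2 arrays were intermingled, and the C4 arrays stood apart below both. The fall in C4 was 0.45 against Ctr (SE 0.062, 95% confidence interval -0.60 to -0.30, adjusted p = 0.00854), a 1.37-fold lower level, and 0.46 against C2 (adjusted p = 0.00867). The difference between C2 and Ctr was 0.01, with a 95% confidence interval of -0.14 to 0.16. The second probe set gave 9.18, 9.22 and 9.25 in Ctr, 9.27, 9.18 and 9.42 in C2, and 8.73, 8.92 and 8.82 in C4. It had the same pattern, with falls of 0.39 against Ctr (adjusted p = 0.0249) and 0.47 against C2 (adjusted p = 0.0144). Both falls of Cdkn1a passed under all 17 alternative settings.

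Plk2 (Entrez gene 20620, chr13:110395044-110400844) encodes polo-like kinase 2, a kinase of centriole duplication and of synapses that is also known as an early response gene of serum and growth factors. Its log2 levels were 9.21, 9.26 and 9.24 in Ctr, 8.85, 8.85 and 8.92 in C2, and 8.47, 8.56 and 8.39 in C4. The conditions formed 3 separate steps, each wider than the spread within a condition, and Plk2 was the only member that passed in all 3 comparisons. The falls were 0.37 in C2 (SE 0.046, adjusted p = 0.0195) and 0.77 in C4 (95% confidence interval -0.87 to -0.66, adjusted p = 0.000388) against Ctr, and 0.40 in C4 against C2 (adjusted p = 0.00477). The falls in C4 passed under all 17 alternative settings. That in C2 missed the threshold in 7 of 17, where it lay between -0.38 and -0.35, among them each fit without Ctr replicate 1 (adjusted p = 0.0559), Ctr replicate 2 (0.0772), Ctr replicate 3 (0.0591), C2 replicate 1 (0.0709) or C2 replicate 2 (0.0745), with a range of 0.00406 to 0.144 over all settings. A second probe set annotated to Plk2 stayed at 2.27 on every array and carries no measurement.

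**Figure D2:**
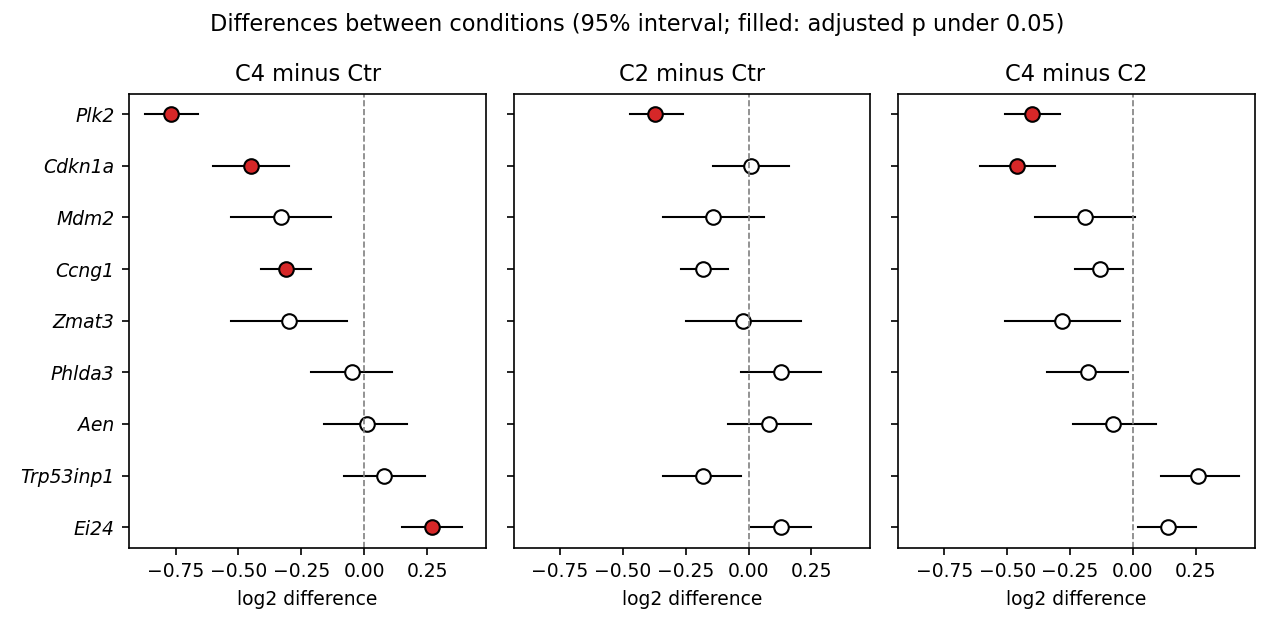
Difference in log2 level between conditions (x axis) for the 9 measured genes, by the probe set of highest mean; points are estimates of the limma fit, bars are 95% confidence intervals, and filled points passed an adjusted p of 0.05. Plk2 is filled in all 3 panels and Cdkn1a in both comparisons of C4, while Ei24 at 0.27 is the only filled point to the right of 0.

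The remaining members act in cell death, survival signalling and RNA control. Ei24 (Entrez gene 13663, chr9:36779153-36797334), an endoplasmic reticulum membrane protein of autophagy that was found as a gene induced by the drug etoposide, was the only member to rise. Its log2 levels were 10.45, 10.47 and 10.37 in Ctr, 10.59, 10.49 and 10.60 in C2, and 10.62, 10.75 and 10.72 in C4. Neither the C2 nor the C4 arrays overlapped with Ctr, and C4 lay above C2. The rise in C4 was 0.27 (SE 0.049, adjusted p = 0.026), and the difference in C2 was 0.13 (adjusted p = 0.408). The call in C4 was lost in 8 of 17 alternative settings, including those without Ctr replicate 1 (adjusted p = 0.0724), Ctr replicate 2 (0.062), Ctr replicate 3 (0.0753), C4 replicate 2 (0.0838) or C4 replicate 3 (0.085), over a range of 0.00497 to 0.103.

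Zmat3, a zinc finger protein that binds RNA and regulates its splicing and stability, had log2 levels of 9.45, 9.45 and 9.44 in Ctr and 9.53, 9.38 and 9.39 in C2, and of 9.00, 9.07 and 9.37 in C4. On C4 replicate 3 it was near the level of the other conditions. The difference between C4 and Ctr was -0.30 (adjusted p = 0.173), and without C4 replicate 3 it was -0.41 and passed (adjusted p = 0.0129, over a range of 0.0129 to 0.42). Against C2 the difference was -0.28 (adjusted p = 0.23), and -0.39 without the same array (adjusted p = 0.0165, over a range of 0.0165 to 0.544). Trp53inp1, a stress protein that assists the phosphorylation of p53 and acts in autophagy, read 11.01, 11.11 and 11.16 in Ctr, 10.95, 10.84 and 10.94 in C2, and 11.05, 11.21 and 11.26 in C4. It was lowest in C2, where all arrays lay below Ctr and C4, but neither the difference from Ctr (-0.18, adjusted p = 0.365) nor that between C4 and C2 (0.26, adjusted p = 0.0863) passed. The latter passed without C4 replicate 1 (0.32, adjusted p = 0.0333, over a range of 0.00956 to 0.254). A second probe set of Trp53inp1 was also below Ctr on every C2 array, by 0.21 in the mean (adjusted p = 0.361).

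Phlda3, which competes with the survival kinase Akt for membrane lipids, stayed between 7.50 and 7.86 on all arrays. Its arrays in C2 (7.86, 7.75 and 7.68) lay above those in Ctr (7.68, 7.63 and 7.58), at the closest pair by less than the rounding shows, and the difference of 0.13 did not pass (adjusted p = 0.634). Its difference between C4 and Ctr was -0.05, with a 95% confidence interval of -0.21 to 0.11. Aen, a nuclease that takes part in DNA breakdown during apoptosis, had log2 levels of 8.12, 8.21 and 8.16 in Ctr, 8.21, 8.20 and 8.33 in C2, and 8.03, 8.21 and 8.27 in C4. These overlapped throughout, and the interval of the difference between C4 and Ctr ran from -0.16 to 0.17. Of the other 3 probe sets of Aen, 1 was detected and did not pass either, and the other 2 lay below the floor.

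Counted by arrays alone, 5 of the 9 genes (Plk2, Cdkn1a, Mdm2, Ccng1 and Zmat3) had every C4 array below every Ctr array, as had 16.2% of genes over the floor, and 1 gene (Ei24) had them above, as had 25.9%. In C2, 3 genes lay below Ctr (Plk2, Ccng1 and Trp53inp1) and 2 above (Ei24 and Phlda3), beside 11.9% and 19.9% of genes over the floor. Between C4 and C2, 5 genes lay lower in C4 (Plk2, Cdkn1a, Mdm2, Ccng1 and Zmat3) and 2 higher (Trp53inp1 and Ei24), beside 18% and 21% of genes over the floor.

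**Figure D3:**
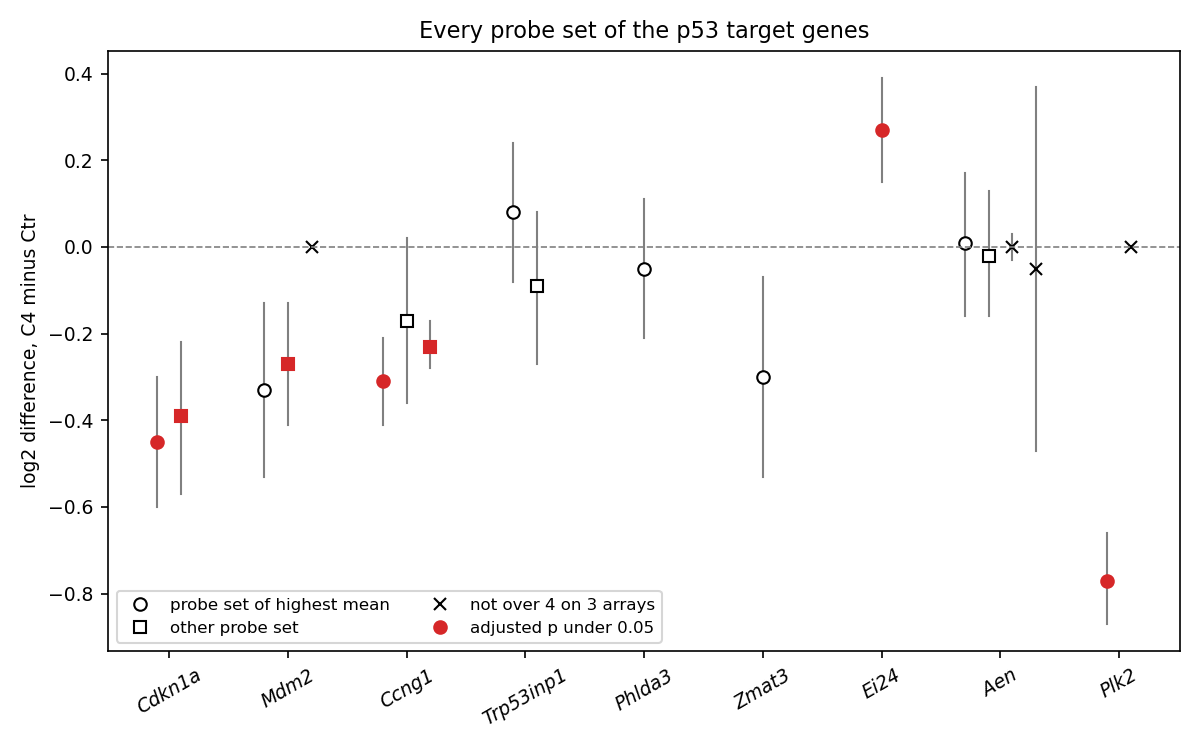
Difference in log2 level between C4 and Ctr (y axis) for all 19 probe sets of the 9 genes; circles are the probe sets of highest mean, squares the others, crosses those not over 4 on 3 arrays, bars 95% confidence intervals, and filled symbols passed an adjusted p of 0.05. The detected probe sets of Cdkn1a, Mdm2 and Ccng1 lie below 0 within each gene, from -0.45 to -0.17.

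The range of the 3 condition means was widest for Plk2 (0.77 on the log2 scale), followed by Cdkn1a (0.46), Mdm2 (0.33), Ccng1 (0.31), Zmat3 (0.30), Ei24 (0.27), Trp53inp1 (0.26), Phlda3 (0.18) and Aen (0.08). Among all probe sets with 1 gene symbol and a mean of at least 4, those of other genes whose values around their own mean came closest to Plk2 over the 9 arrays were of Qpct, Crip2, Zfp467, Vmp1 and Gstm1, with mean absolute differences of 0.051 to 0.057. Qpct encodes a glutaminyl cyclase, Vmp1 a membrane protein of autophagy and Gstm1 a glutathione transferase whose family has near-identical members that the probes may share. Each of the 5 had Ctr above C2 and C2 above C4, with differences between C4 and Ctr of -0.80 to -0.62. This order follows from choosing them by closeness to Plk2 on the same arrays.

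Of the growth arrest targets outside the 10 genes, Btg2 rose and Gadd45a fell in C4. All 10 genes of this list were measured, 8 of them over the floor, so 1 higher and 1 lower stand beside the 10.7% and 6.78% of all genes over the floor, and most of the list did not pass. In this and the following lists a gene counts once, through the probe set with its highest mean, and other probe sets that passed against Ctr are given beside it. Gadd45a, a stress protein that slows the cycle at G2, read 8.85, 8.97 and 8.91 in Ctr, 8.82, 8.88 and 9.05 in C2, and 8.10, 7.98 and 7.92 in C4. It had the pattern of Cdkn1a, with a fall in C4 of 0.91 (SE 0.073, adjusted p = 0.00116) and a difference in C2 of 0.00. Btg2, an antiproliferative gene induced by p53, went the other way in C4, with 7.55, 7.69 and 7.69 in Ctr, 7.20, 7.01 and 7.30 in C2, and 8.45, 8.41 and 8.57 in C4. Its rise against Ctr was 0.84 (SE 0.084, adjusted p = 0.00263) and that against C2 was 1.31 (adjusted p = 0.000455), while a second probe set at 0.58 against Ctr did not pass (adjusted p = 0.109). All C2 arrays of Btg2 lay below Ctr, so the rise against C2 includes a lower level in C2. That difference of -0.47 did not pass (adjusted p = 0.0534), but did in 2 of 17 alternative settings (range 0.0076 to 0.206). On the second probe set it was -0.11. Sesn2, a stress-induced inhibitor of mTORC1, was high in C2 alone, at 7.91, 7.72 and 7.97 against 7.19, 7.21 and 7.28 in Ctr and 7.26, 7.14 and 6.90 in C4. The rise of 0.64 in C2 (adjusted p = 0.0429) was seen on its second probe set as well (0.74, adjusted p = 0.0432), yet it was lost in 12 of 17 alternative settings (range 0.00661 to 0.157), and the adjusted p was 0.0666 to 0.14 when any 1 array of Ctr or C2 was left out and 0.081 without C4 replicate 2. Sesn1 was 0.61 lower in C4 than in Ctr without passing (adjusted p = 0.0903). Its probe sets disagreed in sign, others differing by 0.07 and by 0.35 (adjusted p = 0.0861) in the same comparison. Against C2, the probe set at 0.35 was higher in C4 by 0.73 (adjusted p = 0.00623), and the brightest differed by 0.08.

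No cell death target passed in any of the 3 comparisons. Of the 12 genes on this list 11 were measured and 6 exceeded the floor, and without adjustment 4 were lower and 0 higher in C4, 2 lower and 0 higher in C2, and 0 in either direction in C4 against C2. The 4 lower in C4 include Pmaip1, which lay under the floor, while the shares that follow are of genes over it. Unadjusted, 15.4% of genes over the floor were lower and 24.6% higher in C4, 9.54% and 16.8% in C2, and 16.7% and 19.6% in C4 against C2. Bbc3, which encodes the BH3-only protein Puma, had a difference of -0.35 in C4 (adjusted p = 0.302), and Pmaip1, which encodes Noxa, stayed under the floor, where its mean was 3.47 in Ctr and 2.86 in C4 (adjusted p = 0.174). The differences of Apaf1, the core of the apoptosome, and of Eda2r, a death receptor, were -0.25 and -0.19 in C4 (adjusted p = 0.206 and 0.127), and that of Siva1 was 0.24 (0.596). The median difference of the 6 genes over the floor was -0.11 in C4 and -0.12 in C2.

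Among targets of DNA repair and metabolism, 14 of 16 were measured, 13 of them over the floor, and 1, Polk, passed. It was lower in C4, as were 6.78% of genes over the floor, and in C2, as were 1.59%. Polk, a DNA polymerase that copies past damaged bases, read 7.11, 7.05 and 7.08 in Ctr, 6.74, 6.82 and 6.66 in C2, and 6.45, 6.48 and 6.55 in C4. Its falls were 0.59 in C4 (adjusted p = 0.00109) and 0.34 in C2 (adjusted p = 0.0245), and that in C2 was lost in 10 of 17 alternative settings (range 0.0134 to 0.273), among them those without Ctr replicate 1 (0.084), 2 (0.0742) or 3 (0.0725), C2 replicate 1 (0.08) or 3 (0.0553), or C4 replicate 2 (0.0511). Between C4 and C2, Polk differed by -0.24 (adjusted p = 0.0331), which passed in only 6 of 17 alternative settings (range 0.0234 to 0.305). A second probe set of Polk did not pass in any comparison (-0.54 in C4 against Ctr, adjusted p = 0.246). Cpt1c, Lpin1, Aldh4a1 and Tsc2 differed from Ctr by -0.20, -0.10, 0.15 and 0.63 in C4 without passing.

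Of the targets that are secreted or lie at the cell surface, 5 of 7 were measured, 3 of them over the floor. In C4, 2 fell and 1 rose, beside 6.78% lower and 10.7% higher among all genes over the floor. Igfbp3, a binding protein of insulin-like growth factors, read 11.99, 12.11 and 12.06 in Ctr, 12.31, 12.24 and 12.20 in C2, and 11.11, 10.98 and 11.19 in C4, a fall of 0.96 (SE 0.059, adjusted p = 0.000451). A second probe set fell in C4 by 0.64 (adjusted p = 0.00196). In C2 every array of the first probe set lay above Ctr, but its difference of 0.19 did not pass (adjusted p = 0.257). The second rose in C2 by 0.43 and passed (adjusted p = 0.0254). The study selected Igfbp3 on these same arrays, so its fall is not independent evidence of a direction. By quantitative RT-PCR the study reports Igfbp3 as higher in C2. Among the downregulated genes it measured that way, it names Npnt and Calb1 alone as lower in C4. Sulf2, a heparan sulphatase, fell by 0.32 on its brightest probe set (adjusted p = 0.000944), but another of its probe sets rose by 0.29 (adjusted p = 0.0255). Cx3cl1, a chemokine, rose by 0.71 from a low level of 4.87 (adjusted p = 0.0213), a call that was lost without Ctr replicate 2 (0.0647) or Ctr replicate 3 (0.0536) within a range of 0.00305 to 0.0813, and its other probe sets did not pass. Epha2 and Thbs1 were under the floor.

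**Figure D4:**
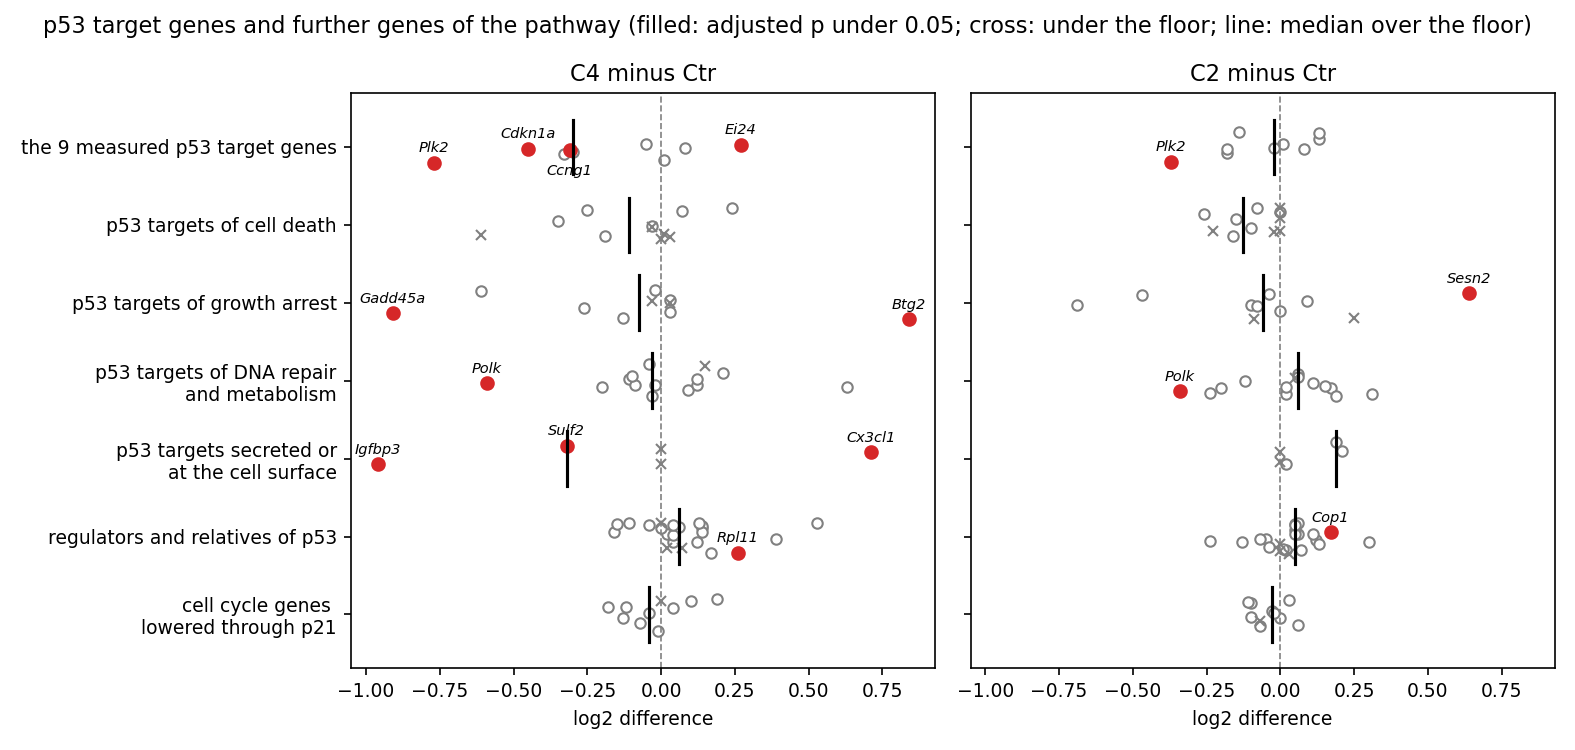
Difference in log2 level (x axis) of the 9 p53 target genes and of the measured genes of 6 further lists (rows), for C4 against Ctr and C2 against Ctr; each point is a gene by its probe set of highest mean, filled and named where it passed an adjusted p of 0.05, crosses are genes under the floor, and black lines are medians of genes over the floor. In C4 the medians are -0.30 for the 9 genes, -0.32 for the 3 secreted or surface targets over the floor, and -0.11 to 0.06 for the other lists.

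Of 23 regulators and relatives of p53, 22 were measured, 19 of them over the floor. By the probe set of highest mean only Rpl11 passed in C4, higher, beside 10.7% higher and 6.78% lower among all genes over the floor. In C2 only Cop1 passed, higher, beside 3.21% higher and 1.59% lower. Rpl11, a ribosomal protein that can bind and block Mdm2, rose by 0.26 (adjusted p = 0.00747). The differences of the kinase Hipk2 (0.53, adjusted p = 0.0665), of the acetyltransferase Crebbp (0.14, 0.0981), of the phosphatase Ppm1d (0.39, 0.115) and of the ubiquitin ligase Rchy1 (0.14, 0.18) did not pass on that probe set. For Hipk2, however, another pair of probe sets rose in C4, by 0.57 (adjusted p = 0.0161) and 0.50 (0.0429), and for the kinase Atr, a sensor of DNA damage whose probe set of highest mean differed by -0.11, another probe set fell by 0.82 in C4 (0.00866) and by 0.68 in C2 (0.0443). In C2, Cop1, another ubiquitin ligase of p53, rose by 0.17 (adjusted p = 0.0346), which was lost in 10 of 17 alternative settings (range 0.0217 to 0.386), among them those without Ctr replicate 1 (0.0894), 2 (0.114) or 3 (0.0838), C2 replicate 1 (0.103) or 3 (0.114), or C4 replicate 1 (0.0697) or 2 (0.0528).

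By the probe set of highest mean, no cell cycle gene that p53 lowers through p21 passed in any comparison. Of the 11, 10 were measured and 9 exceeded the floor. Without adjustment 1 was higher and 0 lower in C4, 0 in either direction in C2, and 2 higher and 0 lower in C4 against C2, beside the unadjusted shares given above for genes over the floor. Birc5, which encodes survivin, differed by 0.19 in C4 (adjusted p = 0.079), Cdc20, an activator of the anaphase-promoting complex, by 0.10 (adjusted p = 0.318), and the mitotic kinases Bub1, Aurka and Plk1 by -0.12, -0.18 and -0.07. A second probe set of Cdc20 rose, by 0.33 in C4 against Ctr (adjusted p = 0.00555) and by 0.32 against C2 (adjusted p = 0.00647). The median difference of the 9 genes over the floor was -0.04 in C4, where Cdkn1a fell by 0.45.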

How the data were processed

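Log2 expression values per probe set were used as deposited: the authors hybridised RNA of aOBSC neurospheres to Affymetrix arrays and normalised all 9 with GCRMA, whose version is not given in the sources used here. Of 45101 probe sets, 64 controls were left out. The platform annotation gives 34945 of the others 1 gene symbol, 932 several and 9160 none, and 34741 were matched to RefSeq by Entrez number for positions. For each gene the probe set brightest on average was taken. Quantile steps in GCRMA remove any shift that all genes share, and arrays have no read depth, so their number limits the precision.

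Conditions were compared with limma 3.58.1 in R 4.3.3, fitting a mean for each condition, all 9 arrays sharing the estimate of the spread, and an empirical Bayes prior that follows the intensity (6 residual and 0.574 prior degrees of freedom). The 45037 p-values of a comparison were adjusted after Benjamini and Hochberg, and a call needs an adjusted p under 0.05.

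The members and gene lists were chosen with earlier results of these data known. Named genes were the 10 members, from each list up to 5 genes of smallest p in C4 and up to 2 in C2, and the 5 genes closest to the member of widest range. The cell type markers named, and Atr, were chosen after their values were seen. Motifs were searched as exact matches on both strands in the 250 bases before each RefSeq start. The 17 alternative settings covered the variance prior, a filter on dim probe sets, the arrays entering the fit, a replicate block, centring, the choice of probe set and leaving out each array. The set applied to further genes of the pathway was chosen after seeing the data.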

Additional observations from a re-analysis of the deposited data

How the results depend on the processing

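Of 459 values of single members under the 17 alternative settings, 426 stayed on their side of the threshold, 16 passed it newly and 17 no longer passed. The sign changed in 11 of the 426, all without a call and none over 0.08 in size (differences of Aen and Trp53inp1 in C4 and of Cdkn1a and Zmat3 in C2 against Ctr). The count of members called in C4 against Ctr was 4, and 2 with only the arrays of both conditions in the fit, where fewer samples estimate the spread. It was 6 with the filter on dim probe sets or with each array centred on its median, 5 with the mean over a gene's probe sets, and 3 to 4 when 1 array was left out. In C2 against Ctr the count was 1, and 0 with the robust prior or the replicate block, 2 with the filter or centring, and 0 to 2 when 1 array was left out. In C4 against C2 it was 2, then 4 with centring, and 2 to 4 when 1 array was left out (4 without C4 replicate 1). Over all probe sets, calls in C2 against Ctr fell from 767 to 45 with the robust prior, to 237 with the replicate block, and rose to 1825 with the filter; in C4 against Ctr they went from 2833 to 1386 with the robust prior, to 1618 with 2 conditions, and to 4697 with the filter. Ccng1 lost its call in C4 with only both conditions (adjusted p = 0.0518) and without probe sets that may cross-hybridise (-0.17, adjusted p = 0.457), where another probe set stands for the gene. Sulf2 reversed in that setting for the same reason, to 0.29 in C4 against Ctr and 0.07 in C4 against C2.

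Deviations of same-numbered arrays had correlations of -0.04 to 0.13, against -0.12 to 0.09 for other numbers. These are small, but 3 arrays per condition cannot show whether the numbers pair the samples. With the replicate block, 3 members passed in C4 against Ctr, 0 in C2 against Ctr and 2 in C4 against C2. Centring moved no array by over 0.1. The number of arrays, 3 per condition, limits the precision, and probe sets near 2.27 carry no order. Whether the spread between arrays is that of animals, cultures or hybridisations cannot be told apart.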
